A study of Homo sapiens with 2 samples.

Results

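The genes described here are 43 genes of TGF-beta, activin and BMP signalling, found by their gene symbols among the 55797 genes measured in live and processed Stage 6 cells. Stage 6 closes a stepwise pancreatic differentiation protocol, and it yields a mixed population that contains insulin-expressing cells. Both samples were parts of the same differentiated population, derived from the human embryonic stem cell line H1. RNA of live cells was isolated at once with the RNeasy kit. Processed cells went through MARIS, in which cells were fixed with 4% paraformaldehyde, permeabilized and stained with antibodies, then run through the sorter with every cell kept, and their RNA was isolated with a modified RecoverAll kit. The comparison asks whether RNA from processed cells keeps the expression profile of live cells. With 1 library per condition, no difference has a replicate check in these data, and no test was made. The paper also compared live and processed Stage 6 cells by microarray and qRT-PCR, which were not used here. Across its microarray pairs, it reports no gene that differed consistently. For the RNA-seq libraries used here, the paper reports a close match between the live and processed profiles. It also reports that coverage leaned slightly more towards the downstream end of transcripts after processing. The part of this shift in the differences of single genes was not tested. In a mixed population, fewer cells of a type and less RNA per cell cannot be told apart. Fixation, staining, sorting and the RNA kit all differed together between the libraries. Differences in RNA recovery or integrity therefore cannot be told apart from these either.

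TGF-beta family ligands bring together type II and type I receptor kinases at the cell surface. The activated type I receptor phosphorylates receptor-activated SMAD proteins, which join SMAD4 and regulate genes in the nucleus. SMAD2 and SMAD3 carry the TGF-beta, activin and nodal signal, and SMAD1, SMAD5 and SMAD9 carry the BMP signal. Secreted antagonists trap ligands outside the cell, inhibitory SMADs dampen the response inside it, and the ID genes are classic BMP targets. In pancreatic differentiation, activin is used to form endoderm, and BMP inhibition is used to hold back the liver fate.

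Levels are given as FPKM, the fragments of a gene scaled to the length of its transcript and to the size of the library, with the lower and upper bounds that the authors' software gave for each value. FPKM summed to 510713 in live and 499398 in processed cells. The libraries held markers of several cell types. The summed FPKM of 5 islet endocrine markers (INS, GCG, SST, CHGA, NEUROD1) was 2284 in live and 2274 in processed cells. Most of it was CHGA, at 1794 and 1741 FPKM, whose processed value had status FAIL and bounds from 0 to 4712. INS, at 98.3 and 121 FPKM, SST and NEUROD1 were higher in processed cells with separate bounds, and GCG overlapped. That of 5 pancreatic progenitor markers (PDX1, NKX6-1, PTF1A, SOX9, ONECUT1) was 213 and 205. For 4 hepatocyte markers (ALB, AFP, APOA1, TTR) it was 953 and 1136, and for 4 pluripotency markers (POU5F1, NANOG, LIN28A, SOX2) 181 and 152. The 6 mesenchyme markers (COL1A1, COL3A1, PDGFRA, PDGFRB, LUM, DCN) summed to 74.5 and 63.1. The endothelial markers CDH5, KDR and TEK summed to 2.02 in each library, and PECAM1 was not matched. The leukocyte markers PTPRC, CD68, CD14 and CD3E summed to 1.25 and 0.703. CD3E was listed at 0 in live cells, and PTPRC, CD14 and CD3E were listed at 0 in processed cells. PTPRC and CD14 were at 0.174 and 0.25 FPKM in live cells, and their processed bounds were 0 as well. Whether their listed 0 is a failed estimate is not known, so the lower processed sum is uncertain.

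Of the 43 genes, 40 reached an FPKM of 1 in at least 1 library, and the values of all 43 had status OK in both. The 3 others were INHBA, INHBB and BMP6. Differences are given as a log2 ratio, log2((processed FPKM + 1)/(live FPKM + 1)), which understates the difference of genes with low FPKM. None of the 40 genes was more than 2-fold higher in processed cells, where 6.57% of the 17326 genes that passed the same filter were. On this scale SMAD1 and NOG (5.0%) were more than 2-fold lower, where 6.19% of all genes were. Smaller differences leaned towards lower levels in processed cells. The bounds were separate and lower in processed cells for 26 of 40 genes (65.0%), against 43.7% of all genes. They were separate and higher for 8 genes (20.0%), against 28.1%. The bounds overlapped for the 6 others, which were TGFB1, INHBE, GDF15, BMP4, BMP5 and ID2. The median log2 ratio was -0.31 over the 40 genes and -0.09 over all genes.

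The typical gene was itself slightly lower in processed cells. Processed FPKM over live FPKM had a median of 0.932, and dividing it out raised log2 ratios by up to 0.101. After this scaling, the members had a median log2 ratio of -0.21. Separate bounds were then lower for 22 members (55.0%) and higher for 10 of the 40, against 35.7% and 34.8% of all genes. The bounds of TGFBR2, SMAD7, ID3 and ID4 then overlapped, while GDF15 and ID2 became higher with separate bounds. TGFB1 and BMP5 were the members whose ratio changed sign, and both had overlapping bounds as deposited. SMAD1 stayed past the 2-fold line, whereas NOG, at -0.99, then lay just inside it.

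**Figure D1:**
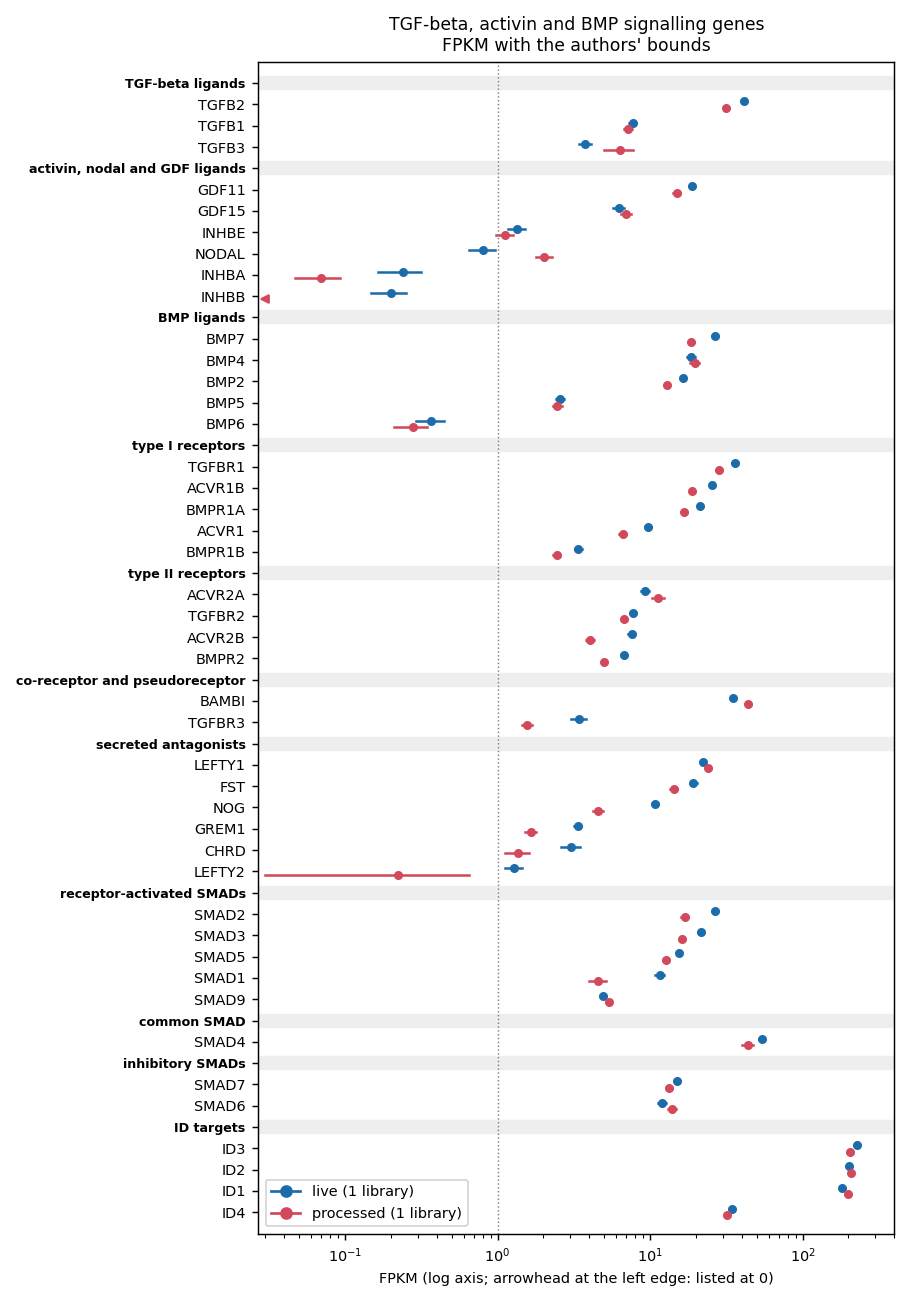
FPKM of each of the 43 genes on a log axis, grouped by role and ordered by live FPKM, with live cells in blue and processed cells in red (1 library each). Horizontal lines are the authors' bounds and an arrowhead marks a value listed at 0. ID1, ID2 and ID3 lie farthest to the right, between 181.7 and 228.6 FPKM, and all 5 type I receptors are lower in processed cells.

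ID genes encode helix-loop-helix proteins that block basic helix-loop-helix transcription factors, and ID1, ID2 and ID3 had the highest levels of all 43 genes. ID3 was at 228.6 FPKM in live cells (bounds 224.4 to 232.7) and at 205.4 FPKM in processed cells (200.8 to 209.9). ID2 was at 200.9 (197.8 to 204.1) and 207.5 (203.4 to 211.5). ID1 was at 181.7 (178.7 to 184.6) and 199.8 (196.2 to 203.5). The order was thus ID3, ID2, ID1 with bounds apart in live cells, and ID2, ID3, ID1 with the bounds of neighbours overlapping in processed cells. ID4 was far below them, at 34.5 and 32.0 FPKM. The log2 ratios ran from -0.15 for ID3 to 0.14 for ID1, and the summed level of the ID genes was 645.7 FPKM in live and 644.6 in processed cells. The ID genes made up 54.9% of the members' summed FPKM in live and 59.3% in processed cells, since the summed level of the other members was lower there. AC011747.7, a gene that overlaps ID2, was at 1.51 and 3.48 FPKM.

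The promoters of ID1, ID2 and ID3 are shown because these genes had the highest levels in the pathway. Each is the 250 bases before the RefSeq start (table of GRCh38.p14), found by exact match in GRCh37 and read 5′ to 3′ on the gene's strand. ID1 is at chr20:30192842-30193091 on the + strand, ID2 at chr2:8821936-8822185 on the + strand and ID3 at chr1:23885993-23886242 on the - strand. The ID2 and ID3 windows lie inside the genes' intervals in the deposited files, which begin further upstream, and the ID1 window overlaps the start of its interval. Capitals mark matches, on either strand, to TATAAA, the core of the TATA box, to GGCGCC, a GC-rich palindrome bound by SMAD proteins, or to GTCTAGAC, the palindrome known for SMAD3 and SMAD4.
ID1: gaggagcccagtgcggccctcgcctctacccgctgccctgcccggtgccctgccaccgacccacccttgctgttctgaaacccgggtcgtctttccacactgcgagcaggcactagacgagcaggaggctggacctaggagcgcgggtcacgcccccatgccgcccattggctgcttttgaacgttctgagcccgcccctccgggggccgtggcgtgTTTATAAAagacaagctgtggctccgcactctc
ID2: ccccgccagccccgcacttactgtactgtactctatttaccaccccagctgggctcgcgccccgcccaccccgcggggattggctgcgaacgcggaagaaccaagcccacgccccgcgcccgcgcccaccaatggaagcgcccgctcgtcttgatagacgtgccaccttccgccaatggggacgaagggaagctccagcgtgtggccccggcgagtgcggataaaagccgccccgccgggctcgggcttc
ID3: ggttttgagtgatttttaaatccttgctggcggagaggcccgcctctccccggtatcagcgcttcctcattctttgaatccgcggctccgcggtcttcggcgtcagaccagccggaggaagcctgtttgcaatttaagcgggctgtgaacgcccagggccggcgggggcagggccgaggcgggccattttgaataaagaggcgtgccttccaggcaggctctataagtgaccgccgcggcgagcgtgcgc
Among these 3 windows, only that of ID1 held one of the motifs, TATAAA, which matched on both strands in overlapping positions that begin 33 and 31 bases before the start. Of 35093 promoters in the table, 10.7% held TATAAA, while 16.4% held GGCGCC and 0.182% held GTCTAGAC. Of 65 promoters of 37 members, 11 held TATAAA, while 15 held GGCGCC and 1 held GTCTAGAC. GC content was 66.0% for ID1, 69.2% for ID2 and 62.0% for ID3, against a median of 58.0% over all promoters. A match describes letters and not binding.

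TGF-beta ligands were led by TGFB2. TGFB2 was at 41.4 FPKM in live cells (bounds 39.5 to 43.2) and at 31.3 FPKM in processed cells (30.4 to 32.1), a log2 ratio of -0.39. TGFB1 was at 7.67 (7.28 to 8.07) and 7.18 (6.78 to 7.58), with overlapping bounds. TGFB3 was higher in processed cells, at 3.76 FPKM in live (3.40 to 4.12) and 6.39 in processed cells (4.99 to 7.78), a log2 ratio of 0.63. The level of TGFB2 was thus 11.0 times that of TGFB3 in live and 4.89 times in processed cells, and the bounds of TGFB1 and TGFB3 overlapped in processed cells alone. TGFB1 overlaps TMEM91, which was at 3.45 FPKM in live and 7.59 in processed cells, and TGFB3 overlaps IFT43, at 18.6 and 13.6 FPKM.

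Among activin, nodal and GDF ligands, the activin subunit genes INHBA and INHBB had the lowest live levels of the 43 genes. INHBA was at 0.240 FPKM in live (bounds 0.164 to 0.315) and 0.0696 in processed cells (0.0470 to 0.0923). INHBB was at 0.201 FPKM in live cells and listed at 0 in processed cells, with bounds of 0 and status OK. In fragments estimated from the steps in low FPKM values, INHBB had about 61 in live cells, and the same level would have given about 57 in processed cells. The listed 0 may be a failed estimate, which the files do not settle. INHBE, a liver-enriched member of the same subunit family, was at 1.34 and 1.12 FPKM with overlapping bounds.

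NODAL, the ligand of early mesendoderm, was at 0.804 FPKM in live cells (0.649 to 0.960) and 2.02 in processed cells (1.78 to 2.26). Its log2 ratio of 0.74 was the highest of the 40 genes and lay inside the 2-fold line, while the plain ratio of FPKM was 2.51. Pluripotency markers, some of which go with NODAL in stem cells, were mixed. NANOG was at 1.27 FPKM in live (1.06 to 1.48) and 7.35 in processed cells, with wide bounds there (4.95 to 9.74). POU5F1 was at 7.92 and 8.53, SOX2 at 52.4 and 47.1 and LIN28A at 119 and 88.7. NANOG overlaps the gene NECAP1, POU5F1 overlaps TCF19 and SOX2 overlaps SOX2-OT. The part of these markers in the NODAL value was not tested. GDF11, which signals through activin receptors, was the most abundant ligand of this group, at 18.8 and 14.9 FPKM (log2 ratio -0.31). GDF15, a stress-induced factor that acts through a different receptor, was at 6.26 (5.75 to 6.77) and 6.96 (6.42 to 7.502).

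BMP ligands were expressed in the order BMP7, BMP4, BMP2, BMP5 and BMP6 in live cells. BMP7 was at 26.6 FPKM in live (25.3 to 27.9) and 18.6 in processed cells (17.8 to 19.4), a log2 ratio of -0.49. BMP4 was at 18.5 (17.4 to 19.7) and 19.6 (18.3 to 21.0), so BMP7 was above BMP4 in live cells, while their bounds overlapped in processed cells. BMP2 was at 16.3 and 12.8 FPKM, with separate bounds. BMP5 was at 2.57 and 2.46 and BMP6 at 0.367 and 0.277, both with overlapping bounds. Summed over the group, BMP ligands were at 64.4 FPKM in live and 53.9 in processed cells, a ratio of 0.836.

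All 5 type I receptors were lower in processed cells with separate bounds, where 43.7% of all genes were, and their log2 ratios lay close together, from -0.49 to -0.33. TGFBR1, the TGF-beta type I receptor, was at 35.8 FPKM in live (34.6 to 37.04) and 28.2 in processed cells (27.5 to 28.9). ACVR1B, a receptor for activin and nodal, was at 25.5 (24.9 to 26.2) and 18.9 (18.4 to 19.4). ACVR1, which takes BMP signals, was at 9.66 (9.20 to 10.1) and 6.60 (6.24 to 6.95). The BMP receptor BMPR1A was at 21.4 (20.9 to 21.9) and 16.8 (16.2 to 17.3), and its relative BMPR1B at 3.38 and 2.44. BMPR1A shares 13.8% of its 80-base windows with genes elsewhere, 8.52% with the pseudogene BMPR1AP2, so its value is less certain. The order of the 5 genes was the same in both libraries, with the bounds of neighbours apart. After division by the median ratio of all genes, the 5 log2 ratios had a median of -0.28 and the bounds of all 5 stayed separate.

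Type II receptors had differences of both signs. ACVR2A, an activin receptor, was higher in processed cells, at 9.27 FPKM in live (8.74 to 9.80) and 11.3 in processed cells (10.4 to 12.3). Its close relative ACVR2B was lower, at 7.61 (7.21 to 8.004) and 4.04 (3.78 to 4.31), a log2 ratio of -0.77. The ratio of ACVR2B to ACVR2A was 0.821 in live and 0.356 in processed cells. ACVR2B-AS1, an antisense gene that overlaps ACVR2B, was also lower, at 1.26 and 0.667 FPKM. The TGF-beta receptor TGFBR2 was at 7.78 and 6.77 FPKM, and the BMP receptor BMPR2 at 6.77 and 5.003, both with separate bounds. In live cells TGFBR2 and ACVR2B could not be ordered by their bounds.

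BAMBI and TGFBR3, which lie beside the signalling receptors, had opposite differences. BAMBI is a pseudoreceptor without a kinase domain that blocks type I receptor signalling. BAMBI was at 34.8 FPKM in live (33.8 to 35.8) and 43.9 in processed cells (42.8 to 44.9), a log2 ratio of 0.33. In processed cells it was the highest member after ID1, ID2 and ID3, with bounds that overlapped those of SMAD4. TGFBR3, the co-receptor betaglycan that presents TGF-beta and binds inhibin, was at 3.40 FPKM in live (3.02 to 3.78) and 1.56 in processed cells (1.45 to 1.67), a log2 ratio of -0.78. The promoter of BAMBI is shown because the gene was higher in processed cells while most receptor genes were lower. Any part of the promoter sequence in that difference was not tested. The window is at chr10:28966200-28966449 on the + strand of GRCh37 and partly overlaps the gene's interval in the deposited files.
BAMBI: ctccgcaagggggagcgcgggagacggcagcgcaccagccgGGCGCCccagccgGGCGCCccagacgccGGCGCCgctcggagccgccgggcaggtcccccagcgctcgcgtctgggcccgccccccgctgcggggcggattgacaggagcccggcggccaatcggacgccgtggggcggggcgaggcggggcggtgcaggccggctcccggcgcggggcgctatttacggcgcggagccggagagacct
Its capitals mark 3 matches to GGCGCC that begin 209, 196 and 181 bases before the start, and its GC content was 81.2%. The 16.4% of all promoters that held GGCGCC is over promoters with a lower median GC content, 58.0%. A SMAD1 window was examined as well and is not shown. It held none of the motifs at a GC content of 78.0%, while other SMAD1 promoters held TATAAA and GGCGCC.

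Of the 6 secreted antagonists, 5 were lower in processed cells with separate bounds, where 43.7% of all genes were, and the median log2 ratio of the 6 genes, -0.74, was the lowest of the member roles. NOG, which encodes the BMP antagonist noggin, was at 10.7 FPKM in live (10.2 to 11.2) and 4.57 in processed cells (4.23 to 4.90). Its log2 ratio was -1.07, with a range from -1.23 to -0.93 when opposite bounds are set against each other. NOG has 1 annotated transcript, and its FPKM corresponded to about 1860 fragments in live and 741 in processed cells, where the live level would have given about 1740. The BMP antagonist CHRD was at 3.04 (2.60 to 3.47) and 1.36 (1.11 to 1.60), and GREM1 at 3.34 (3.16 to 3.53) and 1.66 (1.52 to 1.79). CHRD overlaps EIF2B5, which was at 27.4 and 24.1 FPKM. NOG, CHRD and GREM1 together, a grouping made after their values were seen, summed to 17.1 FPKM in live and 7.58 in processed cells, a ratio of 0.443. FST, which encodes the activin antagonist follistatin, differed less, at 19.2 (18.2 to 20.2) and 14.3 (13.6 to 14.9). Of the 6 mesenchyme markers, 4 were also lower with separate bounds, among them PDGFRB, at 4.27 and 1.17 FPKM, while DCN was higher, at 4.18 and 12.4. The part of cell composition in these differences was not tested.

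LEFTY1 and LEFTY2, neighbouring genes for antagonists of nodal, had opposite differences. LEFTY1 was at 22.1 FPKM in live (21.3 to 22.8) and 24.1 in processed cells (23.3 to 24.97). LEFTY2 was at 1.29 (1.12 to 1.46) and 0.222, with processed bounds from 0 to 0.649 that made it the least precise of the 40 genes in that library. Of the 80-base windows of each gene's main transcript, 17.8% occur in the longest transcript of the other gene. Reads from those stretches can be split between LEFTY1 and LEFTY2, and their separate values are uncertain. LEFTY2 also overlaps RP4-559A3.6, which was at 2.3e-05 FPKM in live (upper bound 0.0205) and 3.57 in processed cells (2.66 to 4.48). RP4-559A3.6 passed the FPKM filter in processed cells alone, so a higher processed level was built into its listing. Its part in the LEFTY2 value was not tested.

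Of the 5 receptor-activated SMAD genes, 4 were lower in processed cells with separate bounds, against the same 43.7% of all genes. SMAD1 had the lowest ratio of all 40 genes, at 11.5 FPKM in live (10.8 to 12.3) and 4.54 in processed cells (3.96 to 5.11). Its log2 ratio was -1.18, with a range from -1.42 to -0.95 from the bounds. SMAD5, which serves the same BMP branch, was at 15.4 (14.98 to 15.8) and 12.7 (12.2 to 13.2), so the ratio of SMAD1 to SMAD5 was 0.750 in live and 0.357 in processed cells. SMAD9 was at 4.90 (4.69 to 5.11) and 5.36 (5.15 to 5.57), and thus stood above SMAD1 in processed cells alone. SMAD1, SMAD5 and SMAD9 together were at 31.8 FPKM in live and 22.6 in processed cells, a ratio of 0.710.

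The SMADs of the TGF-beta and activin branch were also lower. SMAD2 was at 26.8 FPKM in live (25.7 to 28.0) and 16.8 in processed cells (15.9 to 17.7), a log2 ratio of -0.64. SMAD3 was at 21.5 (20.7 to 22.4) and 16.1 (15.6 to 16.7), a log2 ratio of -0.40, and its bounds overlapped those of SMAD2 in processed cells alone. Together, SMAD2 and SMAD3 were at 48.4 and 33.0 FPKM, a ratio of 0.681. SMAD4, the partner of both branches, was at 53.9 (51.8 to 56.1) and 43.6 (40.3 to 46.9).

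The inhibitory SMADs differed in opposite directions by small amounts. SMAD6, which mainly restrains BMP signals, was at 12.05 FPKM in live (11.3 to 12.8) and 13.99 in processed cells (13.2 to 14.8). SMAD7, which restrains TGF-beta and BMP signals, was at 14.98 (14.3 to 15.6) and 13.2 (12.7 to 13.8). Their summed FPKM was 27.0 in live and 27.2 in processed cells, while that of the receptor-activated SMADs was 80.2 and 55.6.

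Several SMAD genes overlap another gene. Overlapping genes were listed only where they reached an FPKM of 1 in at least 1 library. RP11-301H24.4, which overlaps SMAD1, was at 0.102 FPKM in live and 1.68 in processed cells, SMAD9-AS1 at 0.0700 and 1.199, and RP11-729L2.2, which overlaps SMAD4, at 0.207 and 4.11. These genes passed in processed cells alone, so a higher processed level was built into their listing. ELAC1, which also overlaps SMAD4, was lower, at 5.21 and 3.22 FPKM. Whether counting used strand is not given in the sources used here, so fragments of such pairs cannot be told apart with certainty, and their part in the SMAD values was not tested. Of the 40 genes, 10 overlap a gene that passed the FPKM filter. The 30 genes without such a partner had a median log2 ratio of -0.29, with 20 lower and 6 higher by separate bounds. NOG was among these 30 genes, and SMAD1 was not.

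**Figure D2:**
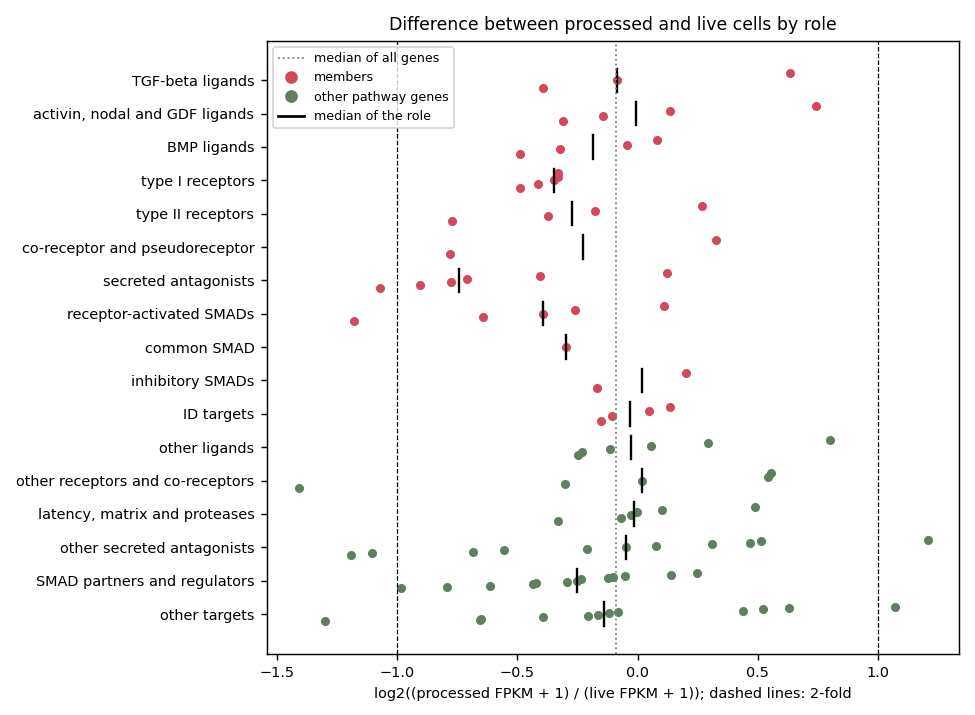
Log2 ratio of processed to live FPKM (pseudocount 1) for each of the 40 members in red and 53 other pathway genes in green, by role, with the median of each role as a black bar and the median of all genes as a dotted line. Among the members, secreted antagonists have the lowest median (-0.74), all 5 type I receptors lie together left of the dotted line, and NOG and SMAD1 lie left of the dashed 2-fold line.

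Members were spread over the range of expression, and how far a typical gene differed depended on its level. Among 4925 genes with a mean FPKM from 3 to 10, 4.81% were more than 2-fold lower and 6.68% more than 2-fold higher, and log2 ratios ran from -0.98 at the 5th to 1.18 at the 95th percentile. Of the 10 members in this range, NOG and SMAD1 lay below the 5th percentile. In the other ranges of mean FPKM from 1 to 300, every member lay between the 5th and 95th percentiles of genes of like level. SMAD2, at -0.64, was the lowest member in the range from 10 to 30 FPKM, where the 5th percentile was -0.73. LEFTY2 had a mean below 1 FPKM and was not placed in a range. Nearest to the 2-fold line on its inner side were LEFTY2 (-0.91), TGFBR3 (-0.78), CHRD (-0.78) and ACVR2B (-0.77), and outside it were NOG and SMAD1.

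**Figure D3:**
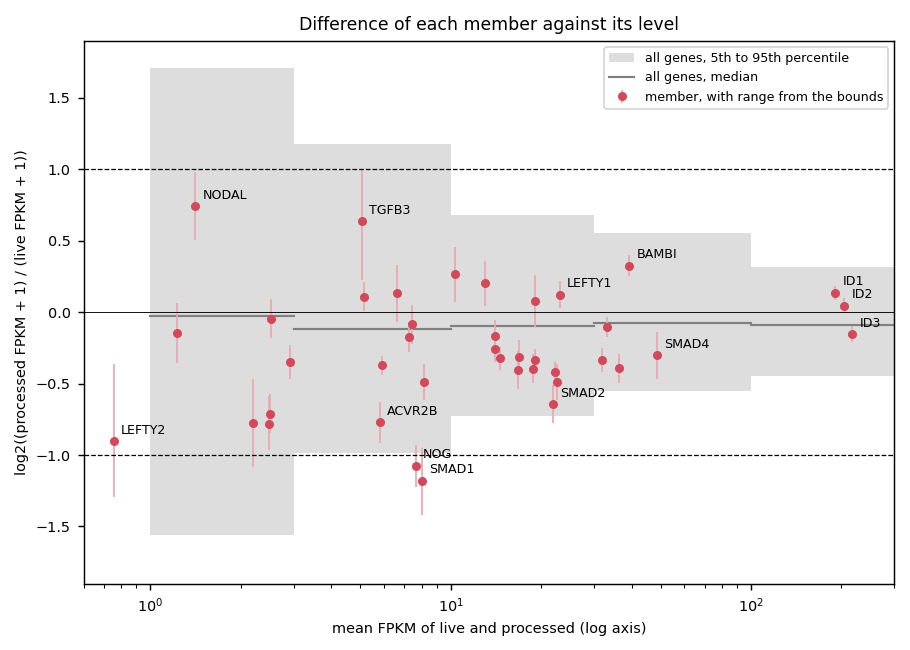
Log2 ratio of processed to live FPKM (pseudocount 1) of each member against its mean FPKM on a log axis, with vertical lines for the range from the bounds. Grey areas span the 5th to 95th percentile of all genes in the same range of mean FPKM, grey lines are their medians and dashed lines mark 2-fold. NOG and SMAD1 lie below the grey area, at -1.07 and -1.18.

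Beside the members, 74 other genes of the pathway were listed. Of these, 53 passed the FPKM filter, with a median log2 ratio of -0.12 beside -0.09 for all genes, or -0.02 after scaling by the median ratio. Their bounds were separate and lower in processed cells for 27 (50.9%) and higher for 13 (24.5%), against 43.7% and 28.1% of all genes. More than 2-fold lower were TDGF1, CHRDL1, SOSTDC1 and CDKN1A. TDGF1, the nodal co-receptor cripto, was at 5.54 FPKM in live and 1.46 in processed cells. The BMP antagonists CHRDL1 and SOSTDC1 were at 5.18 and 1.70 and at 1.89 and 0.342, and CDKN1A, a cell cycle inhibitor and SMAD target, was at 5.65 and 1.70. More than 2-fold higher were the antagonist CHRDL2, at 1.15 and 3.96, and the transcription cofactor LMO2, at 2.15 and 5.62.

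Of 13 SMAD partners and regulators, 10 were lower with separate bounds, 1 was higher and 2 overlapped, where 43.7% of all genes were lower and 28.1% higher. Their median log2 ratio was -0.25, or -0.16 after scaling by the median ratio, under which TGIF2 (-0.02) and ZFYVE9 (-0.01) came close to 0. The corepressors TGIF1 and TGIF2 were at 71.7 and 60.7 and at 50.5 and 46.3 FPKM. The ubiquitin ligase NEDD4L was at 58.0 FPKM in live cells with wide bounds (40.9 to 75.1) and 28.8 in processed cells (27.5 to 30.2). The phosphatase PPM1A was the gene with separate and higher bounds, at 21.6 and 23.9 FPKM. The bounds of FOXH1 overlapped at 1.03 and 1.41 FPKM and those of USP15 at 17.3 and 16.7. These 3 genes were named after their values were seen. Latency, matrix and protease genes had a median of -0.02, or 0.08 after scaling by the median ratio, with the convertase FURIN at 31.5 and 30.9 FPKM and the latent TGF-beta binding proteins LTBP3 and LTBP1 at 22.4 and 31.8 and at 17.9 and 19.3.

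Among other secreted antagonists, FSTL1, a follistatin-like protein, was the most abundant, at 113 FPKM in live and 69.7 in processed cells, with TWSG1 at 15.5 and 13.3 and NBL1 at 14.03 and 14.9. The median log2 ratio of these 11 genes was -0.05, while that of the 6 antagonists among the members was -0.74. After scaling by the median ratio they were 0.03 and -0.68. Of the other ligands, AMH was at 18.9 and 23.4 FPKM, INHA at 7.01 and 6.39 and GDF6 at 3.55 and 2.88. Of the other receptors and co-receptors, RGMA was at 17.0 and 13.7, RGMB at 9.90 and 10.04 and the AMH receptor AMHR2 at 9.56 and 14.4. Among other target genes, CTGF was at 71.7 and 67.7 FPKM, MSX1 at 40.3 and 25.3 and MSX2 at 24.7 and 21.3.

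The bounds were narrow for most members. Averaged over the lower and upper side, the distance from FPKM to its bounds had a median of 4.56% of FPKM in live cells. It ran from 1.56% for ID2 to 19.4% for NODAL. In processed cells it had a median of 5.07%, from 1.82% for ID1 to 146% for LEFTY2, whose lower bound was 0. The bounds cover estimation within a library alone and do not stand for the spread between cultures. Of the 43 genes, 39 shared no 80-base window with the longest transcript of a gene elsewhere in the genome. The exceptions were LEFTY1, LEFTY2, BMPR1A and SMAD2, the last at 0.249%.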

How the data were processed

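RNA-seq measured 1 live and 1 processed library of H1-derived Stage 6 cells with paired reads of 80 nt. Per the labels, the authors used STAR 2.2.0c, Cufflinks 2.0.2 and GRCh37/hg19; the paper's methods add GENCODE 14 annotations. The authors deposited FPKM values with bounds and a status for each gene. The level of the bounds is not given in the sources used here, and read counts were not analysed here. Depth was read only as the step of 1 fragment among weakly expressed genes that have a single transcript (FPKM times length less 170 nt, in kb), at 0.0100 in live and 0.0107 in processed cells.

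Genes were joined by Ensembl identifier with Python 3.11.15, numpy 2.4.6 and pandas 2.3.3, and figures used matplotlib 3.10.9. Log2 ratios used a pseudocount of 1, and counts used genes that reached an FPKM of 1 in the live or the processed library. Bounds were separate where the lower bound of a library exceeded the upper bound of the other. All members are named. Of other pathway genes, those past 2-fold with separate bounds and the 3 highest in live cells per role are named. The members and lists were chosen with earlier results of these data known, as were the promoters shown and the motifs. Shared sequence was taken from main transcripts of GENCODE 44 mapped to GRCh37, a later release than the authors used. RefSeq promoters matched 37 of 43 members. INHBE, BMP2, BMP7, LEFTY1, LEFTY2 and NOG had no entry. The calculations were tested on simulated data for genes of at least 10 FPKM in both libraries, with changes past 2-fold. The simulation did not cover smaller differences or genes of lower level. Alternatives covered the pseudocount, the FPKM filter, scaling, status and the fold threshold.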

Additional observations from a re-analysis of the deposited data

How the results depend on the processing

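Of the 40 members past the FPKM filter, none changed the sign of its log2 ratio under scaling to equal sums, and TGFB1 and BMP5 changed sign under scaling by the median ratio. A pseudocount cannot change a sign. The median log2 ratio of the members stayed between -0.32 and -0.21 under all alternatives. The number of members more than 2-fold higher, 0 as reported, was 1 (NODAL) with a pseudocount of 0.1 or 0.01 and 2 (NODAL and TGFB3) at a threshold of 1.5-fold. The number more than 2-fold lower, 2 as reported, was 5 with a pseudocount of 0.1 (TGFBR3, LEFTY2 and CHRD added), 6 with 0.01 (GREM1 added as well), 1 under scaling by the median ratio (SMAD1) and 8 at 1.5-fold (GREM1, SMAD2, TGFBR3, LEFTY2, ACVR2B and CHRD added). A filter of at least 10 FPKM in 1 library left 24 members, of which 5 were higher and 17 lower with separate bounds, fewer because fewer genes pass. No filter and a filter of 1 FPKM in both libraries kept each count within 1.5 times its reported value. The restriction to status OK removed no member. No paired analysis was possible because each condition has 1 library. The processed bounds of LEFTY2 were the widest, and the cause was not tested.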
